A study of Mus musculus with 6 samples.

Results

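Chemokines are small secreted proteins that direct the movement of leukocytes through receptors on the cells they attract. The genes described here are Ccl2, Ccl3, Ccl4, Ccl7, Ccl11, Ccl12, Ccl19, Cxcl1, Cxcl10 and Cxcl12, 10 of the 23494 genes in the deposited tables of sorted mouse cortical cells. They were listed by name, with earlier results of these data known. All 10 were present in the table of the NG2 line (22833 genes), of the Tbx18 line (21008 genes) and of the naïve cells of both lines (19679 genes). Members were described as Unique Molecular Identifiers (UMIs, one per captured transcript) summed over the cells of each cluster and library, and as the share of cells with at least 1 UMI.

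The members fall into groups by receptor. Ccl2, Ccl7 and Ccl12 bind CCR2 and draw monocytes, Ccl11 (eotaxin) binds CCR3 on eosinophils, and Ccl3 and Ccl4 draw macrophages and T cells. Ccl19 binds CCR7 on dendritic cells and naïve T cells, Cxcl1 binds CXCR2 on neutrophils, and Cxcl10 is an interferon-inducible ligand of CXCR3 on T and NK cells. Cxcl12 is mostly constitutive, binds CXCR4, and is also taken up by the atypical receptor Ackr3. In the brain, endothelial cells, mural cells, macrophages and microglia are known sources of several of them.

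Cells were from the cerebral cortex of mice aged 3 to 4 months, of the genotype NG2-Cre-ERT2/Ai14-flx (NG2 line) or Tbx18-CreERT2/Ai14-flx (Tbx18 line). In both, tamoxifen activates Cre recombinase under the NG2 or the Tbx18 promoter and switches on tdTomato permanently, and tdT+/DAPI- live cells were sorted. Each line was sampled naïve, 3 days after an intracerebral saline injection (physical injury) and 3 days after an injection of ET-1/L-NAME (ischemic injury; a vasoconstrictor with an inhibitor of nitric oxide synthesis), with tamoxifen given 7 days before either injury. All mice carried Cre and the reporter and received tamoxifen. Each line and condition was 1 library of pooled animals, 6 libraries in all, so no difference between conditions could be tested and no p-value is given. Levels are UMI counts scaled to a common total over the UMIs of the same cells (CPM) with exact 95% Poisson intervals, and shares have exact 95% Clopper-Pearson intervals. All intervals cover counting error only and carry no information on how animals vary.

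The libraries held 686 to 4306 cells (17033 in all) with median depths of 2806 to 9232 UMIs per cell, and any 2 libraries shared 0 to 5 cell barcodes. All 10 members had a UMI in every library except the naïve Tbx18 library, where Ccl7 and Ccl12 had none. The authors' clusters and cell type names were used, and these clusters were made from the expression of the same cells, so contrasts between clusters are descriptions. Names went against the data in several places. In cluster 3 of the Tbx18 line, named microglia, the 76 naïve cells held 1 UMI of C1qa and none of Cd74, with the pericyte gene Vtn at 8421 CPM. The injured cells of that cluster had Cd74 at 13818 (physical) and 11818 CPM (ischemic) and C1qa at 2017 and 1479 CPM, whereas the microglial genes P2ry12 and Tmem119 were at 39.4 and 43.3 and at 9.53 and 13.6 CPM. It is called myeloid cluster 3 below. In cluster 4 of the Tbx18 line, named vascular-genic pericytes, Vtn was 7549 CPM in naïve cells and 37.7 and 9.98 CPM after injury. Ratios to the naïve library in these 2 clusters therefore compare cells of unlike kinds. Cluster 9 of the NG2 line, named microglia, had all 6 listed microglial genes in each library, with P2ry12 at 1238, 633 and 406 CPM in the naïve, physical and ischemic libraries, but held only 18, 36 and 164 cells. The authors gave Ccl4 among the marker genes of this cluster, so its level there is not independent of the name.

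Within each line, members were compared between conditions in each cell group with at least 20 cells in both libraries, where the higher level reached 10 CPM. A member was called higher or lower past a log2 ratio of 1 (a fold of 2, with 1 CPM added to both values). Because the members were chosen with earlier results of these data known, counts of calls beside the share of all genes are descriptions. They are not evidence of an excess among chemokines. In the NG2 line, 5 of 18 member and cell group pairs were higher and 2 lower after physical injury, where 5.87% of all gene and cell group pairs were higher and 6.18% lower. After ischemic injury, 15 of 26 pairs were higher and 2 lower than naïve (8.61% and 5.85% of all pairs), and 12 of 33 were higher and 2 lower than after physical injury (6.43% and 4.73%). Cluster 10 held 44, 23 and 43 cells and 2, 6 and 6 of the pairs tested, and without it 4, 10 and 8 pairs were higher. In the other cell groups of this line, 0.175% to 6.7%, 0.654% to 7.11% and 0.827% to 5.84% of all genes were higher, in the same order of comparisons. In the Tbx18 line, 18 of 27 pairs were higher and 5 lower after physical injury (11.4% and 18.7% of all pairs), and 15 of 28 were higher and 6 lower after ischemic injury (13.6% and 22.1%). Without clusters 3 and 4, whose naïve cells differ in kind, these were 6 higher and 0 lower, and 6 higher and 1 lower. Clusters 0, 1 and 2 remained, with 2, 2 and 6 pairs tested after physical and 3, 2 and 6 after ischemic injury. Of all genes there, 2.86%, 4.19% and 8.48% were higher and 7.85%, 10.7% and 5.04% lower after physical injury. After ischemic injury 3.36%, 12.7% and 11% were higher and 7.16%, 16% and 8.56% lower. Between the injuries, 2 of 26 pairs in the Tbx18 line were higher and 5 lower in the ischemic library (4.3% and 5.51% of all pairs).

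**Figure D1:**
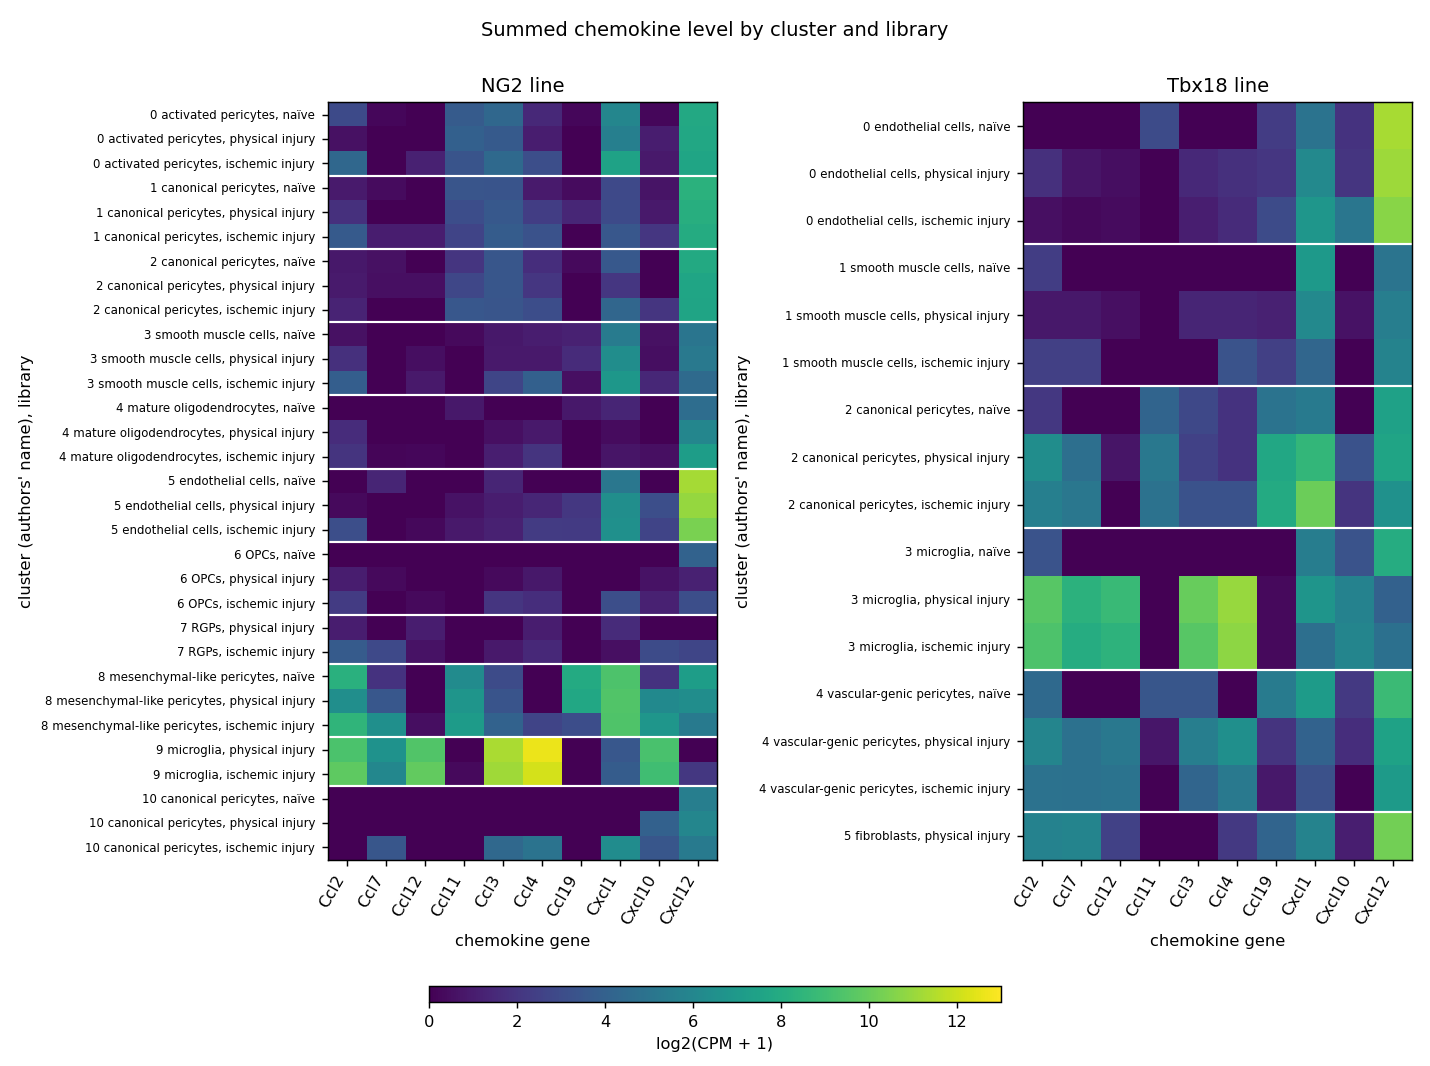
Level of each of the 10 chemokine genes (columns) in each cluster and library (rows, with the authors' cluster names), as log2(CPM + 1) on a common colour scale; the left panel is the NG2 line and the right panel the Tbx18 line. Ccl3, Ccl4 and Ccl12 are brightest in NG2 cluster 9 and in the injured cells of Tbx18 cluster 3, Cxcl12 in the endothelial clusters, and Ccl19 and Cxcl1 in NG2 cluster 8 and Tbx18 cluster 2.

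The genes lie in a few blocks of the mouse genome (GENCODE M21 annotation, GRCm38). Ccl2 (chr11:82035571-82037453), Ccl7 (chr11:82045712-82047525), Ccl11 (chr11:82057823-82062955) and Ccl12 (chr11:82101845-82103400), all on the plus strand, span 67.83 kb. Ccl3 (chr11:83647844-83649355, minus strand) and Ccl4 (chr11:83662584-83664683, plus strand) span 16.84 kb of the same chromosome. Ccl19 is at chr4:42754525-42756577 (minus), Cxcl1 at chr5:90891241-90893115 (plus), Cxcl10 at chr5:92346638-92348889 (minus) and Cxcl12 at chr6:117168535-117181367 (plus). The annotation holds another coding copy of Ccl19 on an unplaced scaffold and the pseudogenes Ccl19-ps1 and Ccl19-ps3, so its reads could be split or lost, and its levels are uncertain to that extent. Ccl2, Ccl19 and Cxcl10 each overlap an antisense gene (Gm17268, 4930578G10Rik and Art3).

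The 3 promoters below are shown because Cxcl1, Cxcl10 and Cxcl12 differed in where and with which condition they were high. Each is the RefSeq sequence before the gene's start in build GRCm38.p6, written 5′ to 3′ on the gene's strand, and capitals mark matches to an NF-kB type motif (GGGA, any 2 bases, TTCC) or an interferon response type motif (GAAA, any 2 bases, GAAA). Cxcl1 is chr5:90890995-90891240 (plus), Cxcl10 is chr5:92348890-92349139 (minus) and Cxcl12 is chr6:117168285-117168534 (plus).
Cxcl1: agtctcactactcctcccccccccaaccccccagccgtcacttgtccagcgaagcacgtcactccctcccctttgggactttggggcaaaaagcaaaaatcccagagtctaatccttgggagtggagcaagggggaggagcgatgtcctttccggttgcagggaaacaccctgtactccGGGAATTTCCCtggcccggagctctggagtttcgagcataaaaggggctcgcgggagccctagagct
Cxcl10: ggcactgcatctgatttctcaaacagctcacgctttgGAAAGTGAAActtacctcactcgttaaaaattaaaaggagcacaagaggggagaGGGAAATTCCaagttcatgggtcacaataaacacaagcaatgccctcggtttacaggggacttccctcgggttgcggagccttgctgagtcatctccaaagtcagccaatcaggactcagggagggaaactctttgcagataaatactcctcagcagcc
Cxcl12: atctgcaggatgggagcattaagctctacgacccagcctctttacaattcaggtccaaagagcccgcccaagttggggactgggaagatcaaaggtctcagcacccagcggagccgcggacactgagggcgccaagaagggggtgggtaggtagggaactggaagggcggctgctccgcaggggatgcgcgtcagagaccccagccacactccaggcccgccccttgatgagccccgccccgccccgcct
Both strands of the 250 bases before each start were searched, and 6 of the 10 members had a RefSeq promoter (Ccl3, Ccl12, Ccl19, Cxcl1, Cxcl10 and Cxcl12). The NF-kB type motif was found in 397 of 32851 promoters (1.21%), among them those of Cxcl1 and Cxcl10. In Cxcl1 the match GGGAATTTCC began 71 bases before the RefSeq start, overlapped by a reverse-strand match 70 bases before it. That window ends at chr5:90891244, inside the GENCODE gene, and only the 246 bases before the GENCODE start are printed. In Cxcl10 the match GGGAAATTCC began 159 bases before the start. The interferon response type motif was found in 978 promoters (2.98%), among them those of Cxcl10 and Ccl19, where GAAAGTGAAA began 213 and 208 bases before the RefSeq start. For Ccl19 that start lies inside the GENCODE gene given above, and so does the match. Neither motif was in the windows of Cxcl12, Ccl12 or Ccl3. A match is a description of the letters and not evidence of a factor bound there.

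Ccl3 and Ccl4 were found mostly in the myeloid clusters. In NG2 cluster 9, Ccl4 was 4588 CPM (4283 to 4909) in the naïve library, 6319 CPM (6115 to 6528) in the physical injury library and 4659 CPM (4588 to 4729.7) in the ischemic injury library, and Ccl3 was 2335, 2588 and 2232 CPM in the same order. Ccl4 was highest in the physical injury library without overlap, the naïve interval of Ccl3 overlapped both others, and neither gene passed the call between the injuries. The naïve values came from 18 cells, too few for a comparison under the rule. In myeloid cluster 3 of the Tbx18 line, Ccl4 was 2012 CPM (1969 to 2057) after physical and 1798 CPM (1757 to 1839) after ischemic injury, and Ccl3 1005 and 789.6 CPM. Neither gene had a UMI in the 76 naïve cells of that cluster.

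These clusters were small parts of their libraries. NG2 cluster 9 made up 0.418%, 1.4% and 4.57% of cells and held 97%, 99.1% and 98.9% of the Ccl4 UMIs of the naïve, physical and ischemic libraries. Tbx18 cluster 3 made up 8.27% and 12.9% of cells after physical and ischemic injury and held 96.5% and 98.9% of Ccl4. Ccl3 was similarly placed in the injured libraries, with 95.2% and 97.8% of its UMIs in NG2 cluster 9 and 95.9% and 98.7% in Tbx18 cluster 3. In the NG2 naïve library the share of Ccl3 in cluster 9 was 69.8%.

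Free RNA can place a transcript in cells that do not make it, so oligodendrocytes served as a comparison. In the NG2 ischemic library, 86% (79.7 to 90.9) of cluster 9 cells had a Ccl4 UMI, against 6.25% (4.44 to 8.51) of the mature oligodendrocytes of cluster 4, at median depths of 19742 and 29600.5 UMIs. With every cell thinned to 1000 UMIs the shares were 74.7% and 0.175%. The oligodendrocyte share was taken as the background for Ccl4 in this library. A share at or below it in other cells is not read as expression, although in shallower cells the background share would be lower.

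The count of Ccl3 relative to Ccl4 differed between cell groups. In NG2 cluster 9 there were 0.509 (0.452 to 0.572), 0.410 (0.385 to 0.435) and 0.479 (0.467 to 0.492) Ccl3 UMIs per Ccl4 UMI in the naïve, physical and ischemic libraries, and in the injured cells of Tbx18 cluster 3 there were 0.50 (0.481 to 0.519) and 0.439 (0.421 to 0.458). In oligodendrocytes, endothelial cells and smooth muscle cells of the NG2 ischemic library the ratio was 0.373, 0.333 and 0.382, with intervals that hold the myeloid value. In the pooled pericyte clusters 0, 1 and 2 of the NG2 line it was 8.0 (5.12 to 13.1), 4.14 (2.28 to 8.04) and 2.06 (1.36 to 3.15). These NG2 pericyte ratios lay above 1 and their intervals did not overlap those of the myeloid clusters. In the pericytes of Tbx18 cluster 2, with 3 to 9 UMIs of either gene in a library, the ratio was 2.25 (0.628 to 10.0), 1.75 (0.445 to 8.15) and 1.0 (0.134 to 7.47), and the injured intervals held the myeloid values.

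Pericyte Ccl3 was at a low level, 13.7 CPM (11.8 to 15.9) in the naïve library, 10.8 CPM (8.22 to 14) in the physical injury library and 16 CPM (12.5 to 20) in the ischemic injury library, with overlapping intervals. A Ccl3 UMI was found in 4.47%, 4.34% and 5.71% of pericytes (1.09%, 0.829% and 1.55% after thinning), at median depths of 3821, 4683.5 and 4202 UMIs. In the deeper oligodendrocytes of cluster 4 it was found in 0 of 103 cells, which allows a share of up to 2.91%, and in 1.02% and 3.04%, with 0% after thinning in each library. The naïve pericytes held 0 UMIs of C1qa and the injured ones 4 and 18. Of 145 naïve pericytes with a Ccl3 UMI, 2 had a Ccl4 UMI, where 21 of all 3243 did. In cluster 9 of the ischemic library 129 of 135 cells with Ccl3 (95.6%) had Ccl4, where 86.0% of all its cells did. The level of Ccl4 and the depth differ between these groups, so the shares are not compared. In Tbx18 cluster 3, 80.7% and 86.0% of cells with Ccl3 had Ccl4 after physical and ischemic injury, where 65.7% and 66.4% of all its cells did. Within a cluster, depth was not matched between cells with Ccl3 and all cells, so these shares are not read as co-expression.

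**Figure D2:**
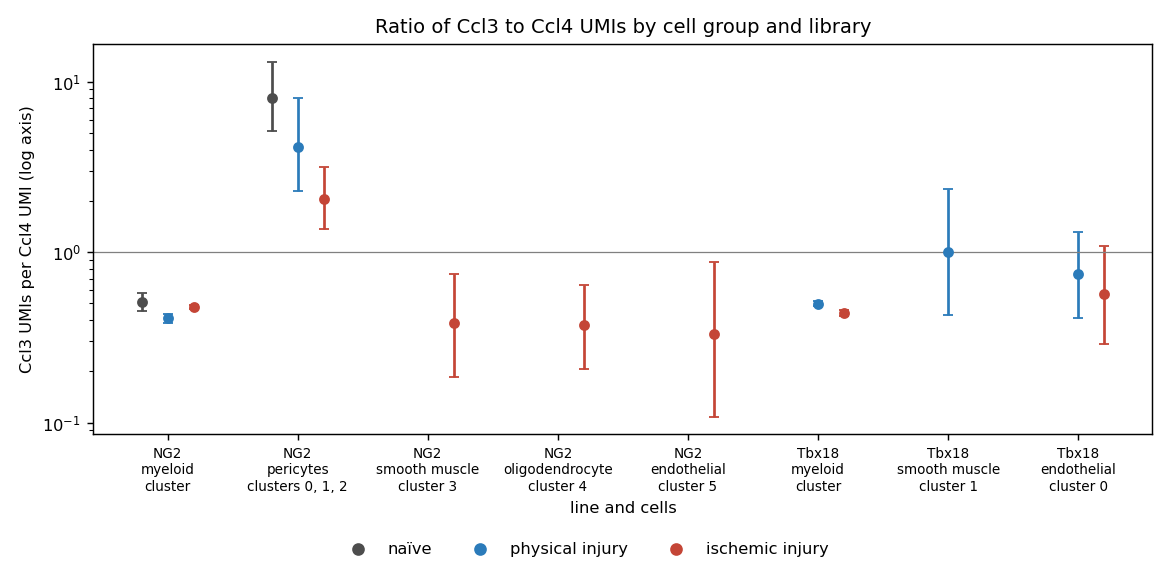
Ccl3 UMIs per Ccl4 UMI on a log axis for the cell groups and libraries with enough UMIs of both genes together. Those with fewer, among them the pericytes of Tbx18 cluster 2, are not drawn. Points are ratios and bars exact 95% intervals. The myeloid clusters lie between 0.410 and 0.509, and the NG2 pericytes between 2.06 and 8.0, with the naïve library highest.

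The CCR2 ligands Ccl2, Ccl7 and Ccl12 shared the myeloid clusters but not the rest of their distribution. Ccl12 lay mostly in them, with 99.3% and 99.4% of its UMIs in NG2 cluster 9 and 94.2% and 97.1% in Tbx18 cluster 3 after physical and ischemic injury. In NG2 cluster 9 it was 92.7 CPM (54 to 149) in the naïve library, 718 CPM (651 to 791) in the physical injury library and 925 CPM (894 to 957) in the ischemic injury library. The naïve interval lay far below those of both injured libraries, but it came from 18 cells and 17 UMIs, too few cells for a comparison under the rule. In Tbx18 cluster 3 Ccl12 was 454 CPM (434 to 476) after physical and 343 CPM (325 to 361) after ischemic injury.

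Ccl2 and Ccl7 were high in myeloid cells and in some mural clusters. Ccl2 in NG2 cluster 9 was 382 CPM (298 to 483) in the naïve library, 638 CPM (575 to 707) in the physical injury library and 883 CPM (852 to 914) in the ischemic injury library, with no overlap among the libraries. The naïve values of this cluster came from 18 cells, too few for a comparison under the rule. Cd74 was 3328, 66.1 and 132 CPM in these libraries. Ccl2 in Tbx18 cluster 3 was 796 CPM (769 to 824) and 657 CPM (633 to 683) after physical and ischemic injury. Ccl7 was 70.9, 99.1 and 63.4 CPM in NG2 cluster 9 (naïve, physical, ischemic) and 328 and 261 CPM in Tbx18 cluster 3. Of the cells with a Ccl7 UMI, 30 of 32 in NG2 cluster 9 (ischemic, 93.8%) also had Ccl2, where 71.3% of all its cells did. In Tbx18 cluster 3 these were 80 of 95 after physical and 56 of 68 after ischemic injury (84.2% and 82.4%), where 58.8% and 50.6% of all its cells had Ccl2. Depth was not matched between cells with Ccl7 and all cells, so these shares are not read as co-expression.

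Cxcl10 was detected in 76 of 164 cells of NG2 cluster 9 in the ischemic library and in 30 of 318 and 28 of 265 cells of Tbx18 cluster 3 after physical and ischemic injury. In NG2 cluster 9 it was 125 CPM (79.5 to 188) in the naïve library, 609 CPM (547 to 676) in the physical injury library and 525 CPM (501 to 549) in the ischemic injury library. The injured libraries overlapped each other and lay above the naïve one, whose 18 cells were too few for a comparison under the rule. After physical injury 173 of the 350 UMIs came from 1 cell. In Tbx18 cluster 3 it was 53.9 CPM (47 to 61.7) and 60.3 CPM (53 to 68.2). All 76 cells of NG2 cluster 9 with Cxcl10 in the ischemic library had Ccl4, where 86.0% of all its cells did. In Tbx18 cluster 3, 25 of 30 and 23 of 28 cells with Cxcl10 had Ccl4, where 65.7% and 66.4% of all its cells did. Depth was not matched between cells with Cxcl10 and all cells, so these shares are not read as co-expression.

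Between the injuries, 0 of 7 members tested in NG2 cluster 9 were called, where 5.84% of all genes were higher and 6.13% lower. In Tbx18 cluster 3, 1 of 8 was called lower in the ischemic library (0.897% of all genes lower) and 0 higher (1.54%). That gene was Cxcl1, at 108 CPM (98.4 to 119) after physical and 26.1 CPM (21.4 to 31.6) after ischemic injury, 4.15-fold lower (3.35 to 5.17). Against the naïve cells of Tbx18 cluster 3, with their 1 UMI of C1qa, 7 of 8 members were higher after physical and 6 of 8 after ischemic injury, and Cxcl12 was lower in both, where 24% and 25% of all genes were higher and 39.2% and 37.3% lower. The median log2 ratio of all genes tested there was -0.53 and -0.44, and these ratios between cells of unlike kinds are not read further. In Tbx18 cluster 3 the summed antigen presenting genes were 32873 and 28626 CPM, the monocyte and neutrophil genes 762 and 1365 CPM and the microglial genes 795 and 749 CPM. In NG2 cluster 9 the antigen presenting genes were 5379, 78.3 and 231 CPM and the microglial genes 8484, 6557 and 5418 CPM (naïve, physical, ischemic).

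**Figure D3:**
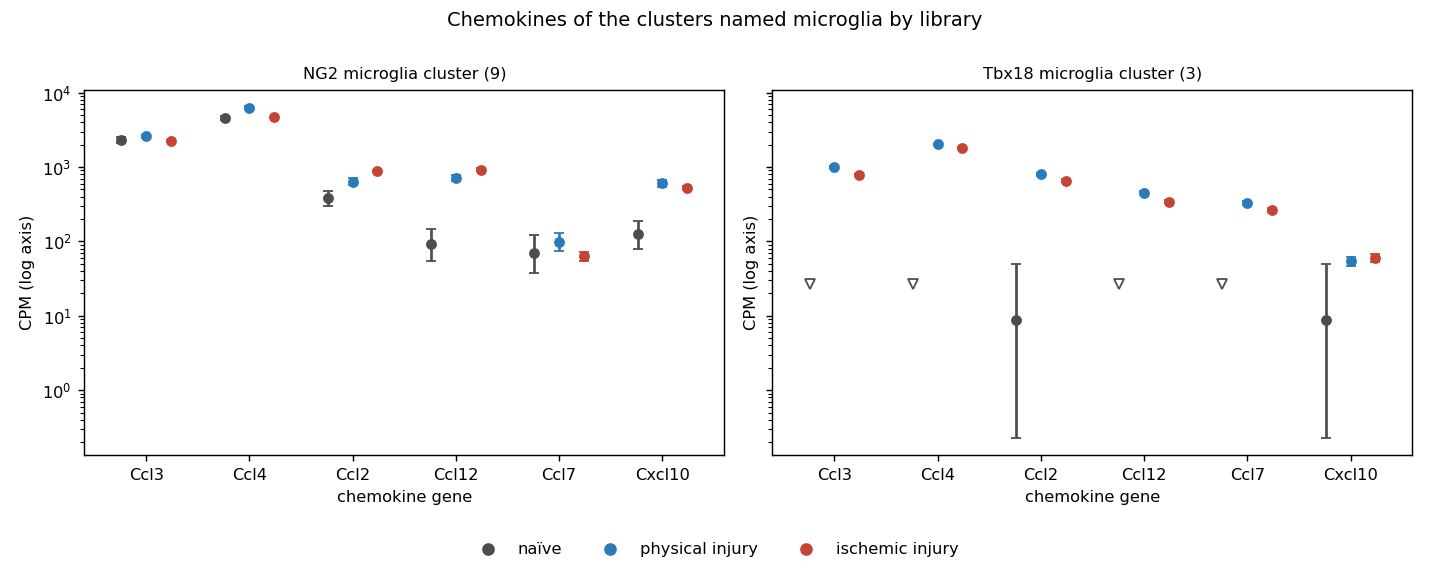
Levels of Ccl3, Ccl4, Ccl2, Ccl12, Ccl7 and Cxcl10 in NG2 cluster 9 and Tbx18 cluster 3 by library, as CPM on a log axis with exact 95% Poisson intervals; open triangles mark 0 counts, drawn at the level of 3 counts. All 6 genes are present in the injured libraries of both lines, and 4 of them have 0 counts in the naïve cells of Tbx18 cluster 3.

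Ccl19 was high in the naïve and physical injury libraries and low in the ischemic library of NG2 cluster 8, which the authors named mesenchymal-like pericytes and which held 177, 81 and 240 cells. Its level was 249 CPM (214 to 288) in the naïve library, 219.9 CPM (188 to 256) in the physical injury library and 7.29 CPM (4.32 to 11.5) in the ischemic injury library. The naïve and physical injury libraries overlapped, and the ischemic library was 34.1-fold lower (21 to 58.9) than naïve and 30.1-fold lower (18.5 to 52.1) than physical injury. A UMI was present in 31.1%, 21% and 3.33% of cells, and in 18.4%, 11.2% and 2.53% after thinning to 1000 UMIs, at median depths of 4026, 7733 and 8444 UMIs. The deeper oligodendrocytes of cluster 4 (13252, 23779 and 29600.5 UMIs) had a Ccl19 UMI in 1 of 103, 0 of 294 and 0 of 592 cells, which allows shares of up to 1.02% and 0.507% where none was found. Cluster 8 held 94.8%, 89.8% and 48.6% of the Ccl19 UMIs of the 3 libraries.

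In the Tbx18 line, Ccl19 was found mainly in cluster 2 (canonical pericytes; 226, 433 and 86 cells) and had the opposite order. It was 30.3 CPM (22.1 to 40.5) in the naïve library, 224 CPM (201 to 249.7) in the physical injury library and 247 CPM (198 to 305) in the ischemic injury library. The injured libraries overlapped each other and were above the naïve one, 7.41-fold higher (5.42 to 10.4) and 8.16-fold higher (5.63 to 12), and 27 of the 45 naïve UMIs came from 1 cell. In the ischemic library of this line, 51.4% of the Ccl19 UMIs lay in endothelial cluster 0, which held 72.7% of its cells at a level of 6.74 CPM.

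Cxcl1 was at similar levels in all conditions in NG2 cluster 8, 655 CPM (598 to 716) in the naïve library, 719 CPM (659.8 to 782) in the physical injury library and 686 CPM (654 to 719.9) in the ischemic injury library, with overlapping intervals. In Tbx18 cluster 2 it was 39.7 CPM (30.2 to 51.2) in the naïve library, 383 CPM (352 to 415) in the physical injury library and 1089.8 CPM (983 to 1204) in the ischemic injury library, with none overlapping. This was 9.64-fold higher (7.37 to 12.8) after physical injury and 27.5-fold higher (20.8 to 36.8) after ischemic injury than naïve, and 2.85-fold higher (2.5 to 3.25) in the ischemic than in the physical library, a call that was lost without the 5% of cells with the most UMIs. In cells of Tbx18 cluster 2 with a Ccl19 UMI, Cxcl1 was 208, 1452 and 2284 CPM in the naïve, physical and ischemic libraries (6, 58 and 21 cells), against 34.6, 87.7 and 442 CPM in cells without one (220, 375 and 65 cells). NG2 cluster 8 had the same order in each library, 1168, 2548 and 1864 CPM in cells with a Ccl19 UMI and 396, 263 and 669 CPM in cells without. In all 6 sets the cells with Ccl19 also had less Vtn. Among Tbx18 cluster 2 cells after physical injury, Vtn was 5924 CPM with Ccl19 and 8208 CPM without.

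In NG2 cluster 8, Ccl7 and Cxcl10 were higher in the ischemic than in the naïve library, and Ccl2 was lowest after physical injury. Ccl2 was 300.3 CPM (262 to 342) in the naïve library, 84.3 CPM (64.9 to 108) in the physical injury library and 369 CPM (345 to 393) in the ischemic injury library, with no overlap. It was 3.56-fold lower (2.69 to 4.78) after physical injury than naïve and 4.38-fold higher (3.39 to 5.73) in the ischemic than in the physical library, and 1 cell held 119 of the 222 naïve UMIs. Ccl7 was 2.71 CPM (0.328 to 9.77) in the naïve library, 10.5 CPM (4.55 to 20.8) in the physical injury library and 87.5 CPM (76.2 to 100.003) in the ischemic injury library, and the ischemic library was 32.4-fold higher (8.85 to 269) than naïve, whose count was 2. Cxcl10 was 2.71 CPM (0.328 to 9.77) in the naïve library, 71.1 CPM (53.4 to 92.8) in the physical injury library and 113 CPM (100.2 to 127) in the ischemic injury library, 41.8-fold higher (11.5 to 347) in the ischemic library than naïve, and 44 of the 54 UMIs after physical injury came from 1 cell. These ratios rest on 2 naïve UMIs each and their intervals are wide accordingly.

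Ccl11 was 77.1 CPM (58.4 to 99.9) in the naïve library, 108 CPM (85.9 to 134) in the physical injury library and 138 CPM (124 to 154) in the ischemic injury library in NG2 cluster 8, where neighbouring libraries overlapped and the ischemic library lay above the naïve one without a call. In the ischemic library 220 of 341 UMIs came from 1 cell, and the level without it was 49.8 CPM. Cxcl12 in this cluster was 147 CPM (121 to 178) in the naïve library, 81.6 CPM (62.6 to 105) in the physical injury library and 39.7 CPM (32.2 to 48.4) in the ischemic injury library, with the ischemic library 3.71-fold lower (2.8 to 4.93) than naïve and 2.06-fold lower (1.47 to 2.85) than physical injury, the latter lost under 8 alternative settings. Of the members tested in NG2 cluster 8, 2 of 7 were higher and 1 lower after physical injury (6.7% and 9.23% of all genes), 3 of 8 higher and 2 lower after ischemic injury (7.11% and 11.8%), and 2 of 8 higher and 2 lower between the injuries (2.59% and 4.19%). Of the 2 higher after physical injury, Ccl7 had a ratio whose interval held 1 and a log2 ratio of -0.010 without its leading cell. The median of all genes tested was -0.15 in log2 for the ischemic against the naïve library. Across naïve, physical and ischemic libraries, the summed endothelial markers of this cluster were 300.3, 753 and 671 CPM, the smooth muscle markers 1399, 4404 and 2467 CPM and the immediate early and dissociation genes 41184, 14358 and 19222 CPM. Their part in these differences was not tested.

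In Tbx18 cluster 2, 5 of 6 members were higher after physical injury (8.48% of all genes), 4 of 6 after ischemic injury (11%), and 1 of 6, Cxcl1, in the ischemic than in the physical library (5.83%). Besides Ccl19 and Cxcl1, Ccl2 was 3.36 CPM (1.09 to 7.85) in the naïve library, 82.2 CPM (68.2 to 98.1) in the physical injury library and 48.2 CPM (28.1 to 77.2) in the ischemic injury library, with 14 of the 17 ischemic UMIs in 1 cell. Ccl7 had 0 UMIs in the naïve cells and was 25.6 CPM (18.1 to 35.1) and 34.1 CPM (17.6 to 59.5) after physical and ischemic injury, at least 12.7-fold higher and at least 16.9-fold higher when the naïve count is set at the floor of 3 counts per library. After physical injury 31 of its 38 UMIs came from 1 cell, and that Ccl7 call was lost without the leading cell. The ischemic call of Ccl7 was not lost in this way, but the ischemic call of Ccl2 was. Ccl11 was 17.5, 36.4 and 28.4 CPM and Cxcl10 0, 8.76 and 2.84 CPM (naïve, physical, ischemic). The Ccl11 call after physical injury, at a log2 ratio of 1.02, was lost without the leading cell (0.86). It was also lost with equal weight of cells (0.82) and with a pseudocount of 10 CPM (0.75). In this cluster the summed pericyte markers were 30166, 19412 and 18557 CPM, the endothelial markers 167, 1039 and 1379 CPM, the smooth muscle markers 827, 4268 and 1978 CPM and the fibroblast markers 225, 608 and 712 CPM, at median depths of 6547.5, 2540 and 3791.5 UMIs. Their part in these differences was not tested.

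**Figure D4:**
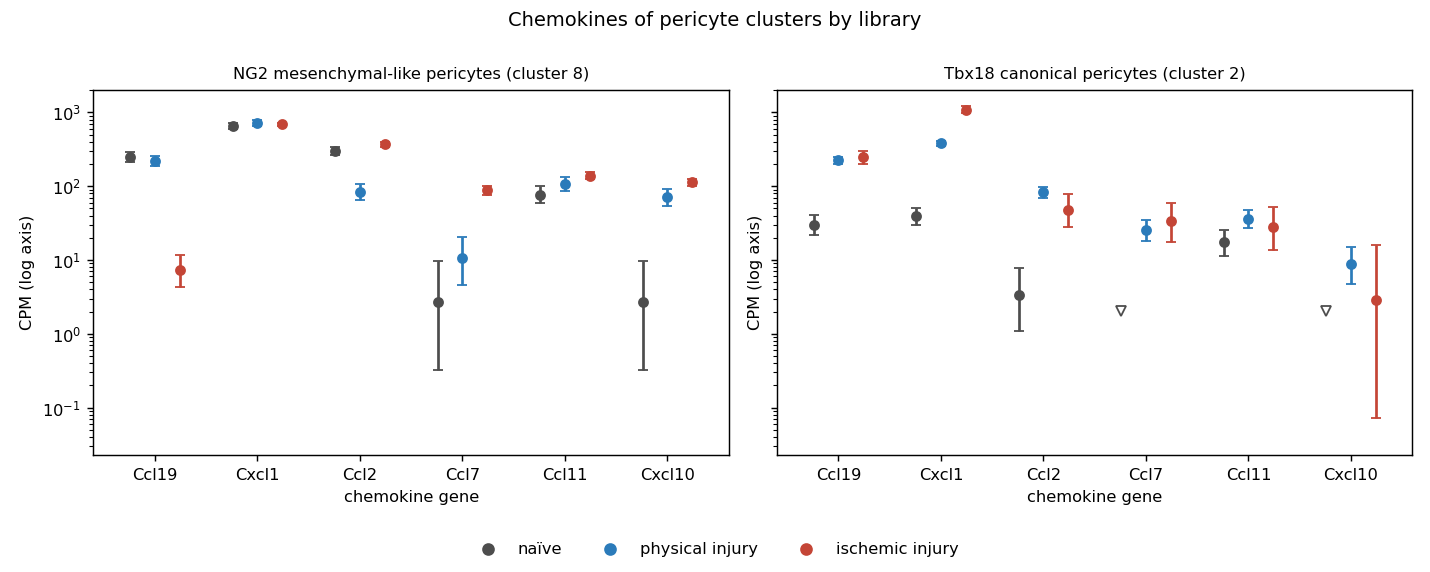
Levels of Ccl19, Cxcl1, Ccl2, Ccl7, Ccl11 and Cxcl10 in NG2 cluster 8 and Tbx18 cluster 2 by library, as CPM on a log axis with exact 95% Poisson intervals; open triangles mark 0 counts, drawn at the level of 3 counts. Ccl19 is 7.29 CPM in the ischemic library of NG2 cluster 8 and 247 CPM in that of Tbx18 cluster 2.

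In the pooled pericyte clusters 0, 1 and 2 of the NG2 line (3243, 1106 and 1085 cells), 2 of 4 members were higher after ischemic than in the naïve library, where 0.654% of all genes were, and 2 of 4 higher than after physical injury (0.827%). Cxcl1 was 31.7 CPM (28.7 to 35) in the naïve library, 20.2 CPM (16.5 to 24.3) in the physical injury library and 97.2 CPM (88.5 to 107) in the ischemic injury library, with no overlap. It was 3.07-fold higher (2.67 to 3.51) after ischemic injury than naïve and 4.82-fold higher (3.9 to 6.01) than physical injury. Ccl2 was 3.28, 1.12 and 12.5 CPM, 3.81-fold higher (2.52 to 5.81) after ischemic injury than naïve, but the calls of Ccl2 were lost without the single leading cell of each sum, which took its level below 10 CPM. Most pericyte Cxcl1 was in cluster 0, named activated pericytes, at 62.1 CPM (55.7 to 69) in the naïve library, 47.7 CPM (38.5 to 58.4) in the physical injury library and 176 CPM (159.9 to 194) in the ischemic injury library, and 14.9%, 9.97% and 25.2% of its cells had a UMI (4.62%, 3.15% and 10.8% after thinning). The oligodendrocytes of cluster 4 had one in 1.94%, 0.68% and 2.03% of cells, and the median depths of cluster 0 were 4122.5, 4944 and 4547 UMIs against 13252, 23779 and 29600.5 in cluster 4. The canonical clusters 1 and 2 had 6.28, 6.63 and 10.7 and 11.1, 3.18 and 18.6 CPM.

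The ratios of Cxcl1 between conditions in smooth muscle cells had opposite signs in the 2 lines, a difference that was not tested. In NG2 cluster 3 it was 41.1 CPM (35 to 48) in the naïve library, 82.4 CPM (71.3 to 94.6) in the physical injury library and 115 CPM (102 to 130.2) in the ischemic injury library, with no overlap between the naïve library and either injury, and 2.81-fold higher (2.3 to 3.44) after ischemic injury than naïve. In that cluster 3 of 4 members were higher after ischemic injury (0.73% of all genes), the others being Ccl2, 0.514, 2.47 and 13.8 CPM, and Ccl4, 1.03, 0.824 and 14.7 CPM with 26 of 34 UMIs in 1 cell. Only 1.81% of these cells had a Ccl4 UMI, against 6.25% of the deeper oligodendrocytes, and at unlike depth these shares do not settle whether it is background. The Ccl4 call was lost without cells holding 3 or more myeloid UMIs (log2 ratio 0.44). It is counted but not read as expression. Ccl2 and Ccl4 were also higher than after physical injury, 2 of 4 members where 0.917% of all genes were. In Tbx18 cluster 1 (63, 827 and 47 cells), Cxcl1 was 131 CPM (101 to 167) in the naïve library, 69.2 CPM (63.7 to 75) in the physical injury library and 18.3 CPM (4.99 to 46.9) in the ischemic injury library. It was 7.13-fold lower (2.65 to 27) in the ischemic library than naïve, 1 of 2 members called lower where 16% of all genes were, and 3.78-fold lower (1.47 to 13.9) than physical injury, 1 of 2 where 8.7% were. The naïve value had 40 of 64 UMIs in 1 cell and the ischemic value rests on 4 UMIs. Without that cell the naïve level falls below the physical injury level, so the sign of that ratio depends on it. The summed immediate early and dissociation genes of Tbx18 cluster 1 were 42901, 36632 and 18364 CPM (naïve, physical, ischemic), the endothelial markers 75.5, 217 and 1108 CPM and the pericyte markers 7975, 2827 and 8438 CPM, at median depths of 7834, 10561 and 2831 UMIs. Their part in this was not tested.

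Cxcl12 was highest in endothelial cells in both lines, and lower there after injury. In NG2 endothelial cluster 5 (101, 404 and 453 cells) it was 2471 CPM (2350.2 to 2596) in the naïve library, 1971 CPM (1926 to 2016) in the physical injury library and 1314 CPM (1281 to 1347) in the ischemic injury library. None overlapped, and the ischemic library was 1.88-fold lower (1.78 to 1.99) than naïve and the physical library 1.25-fold lower (1.19 to 1.32), neither past the call. In Tbx18 endothelial cluster 0 (159, 1788 and 1488 cells) it was 2516 CPM (2403 to 2633) in the naïve library, 2174 CPM (2148 to 2199.8) in the physical injury library and 1647 CPM (1626 to 1668) in the ischemic injury library. The order was that of the NG2 line without overlap, and the ischemic library was 1.53-fold lower (1.46 to 1.6) and the physical library 1.16-fold lower (1.1 to 1.21) than naïve.

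Nearly all endothelial cells had a Cxcl12 UMI, 92.1%, 93.6% and 90.9% in NG2 cluster 5. After thinning to 1000 UMIs the shares were 74%, 70.6% and 58.5% there and 73.7%, 65.6% and 59.6% in Tbx18 cluster 0, in the same order as the levels. These clusters held 30.7%, 80.1% and 61.8% of the Cxcl12 UMIs of the NG2 libraries and 79.7%, 92.2% and 98.3% of those of the Tbx18 libraries. The summed erythroid genes in NG2 cluster 5 were 701, 8820.4 and 10312 CPM, and the summed pericyte markers in Tbx18 cluster 0 3871, 357 and 104 CPM, in the order naïve, physical, ischemic. Their part in these differences was not tested.

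Oligodendrocytes went the opposite way. In NG2 cluster 4 (103, 294 and 592 cells) Cxcl12 was 24.5 CPM (16.7 to 34.5) in the naïve library, 61.9 CPM (56.2 to 68) in the physical injury library and 150.2 CPM (144 to 156) in the ischemic injury library, with no overlap. It was 2.53-fold higher (1.77 to 3.75) after physical and 6.14-fold higher (4.34 to 9.0) after ischemic injury than naïve and 2.43-fold higher (2.19 to 2.69) between the injuries, the 1 member tested, where 1.67%, 5.32% and 2.45% of all genes were higher. A UMI was found in 12.6%, 32.7% and 44.9% of cells, and in 3.03%, 4.11% and 8.74% after thinning. In the oligodendrocyte precursor cells (OPCs) of cluster 6 the shares were 5.0%, 1.33% and 3.4%, and 1.03%, 0% and 0.35% after thinning, at median depths of 4691.5, 12390 and 11764.5 UMIs against 13252, 23779 and 29600.5 in cluster 4. Cxcl12 in these OPCs was 15.8, 1.32 and 7.6 CPM, from 9, 5 and 30 UMIs, and was the 1 member tested and called lower after physical injury, where 4.71% of all genes were.

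Cxcl12 in the pooled NG2 pericytes was 255, 226 and 210.4 CPM, with no call between conditions. In Tbx18 cluster 2 it was 170.1, 195 and 93.7 CPM, lower in the ischemic than in the physical library, 2.08-fold lower (1.45 to 3.08), 1 of 6 members lower where 6.56% of all genes were. In the fibroblasts of Tbx18 cluster 5 after physical injury (116 cells) Cxcl12 was 1199 CPM (1127 to 1274), next in order below the 3 endothelial levels of that line and overlapping none of them. The same fibroblasts had Ccl2 at 54.2 CPM and Ccl7 at 57.7 CPM. In NG2 cluster 7, named radial glial precursors, Ccl2 was 1.03 and 12.2 CPM after physical and ischemic injury, the 1 member tested and called higher where 2.27% of all genes were, and the call was lost without the leading cell, which took the level below 10 CPM.

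**Figure D5:**
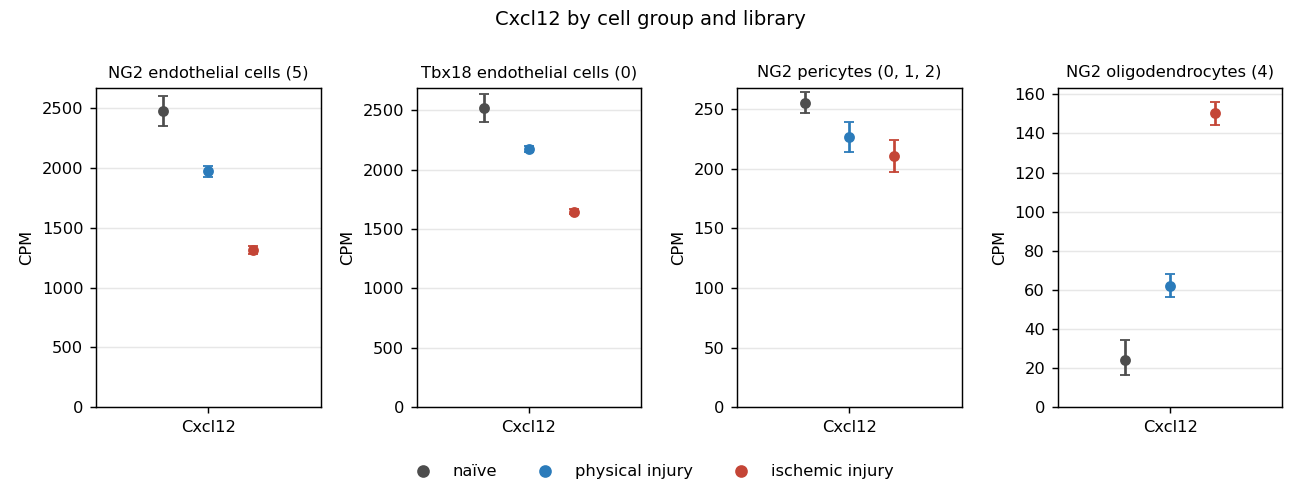
Cxcl12 level (CPM, linear axis from 0) by library in endothelial cells of the NG2 line (cluster 5) and of the Tbx18 line (cluster 0), NG2 pericytes (clusters 0, 1 and 2 pooled) and NG2 mature oligodendrocytes (cluster 4); bars are exact 95% Poisson intervals. Both endothelial panels step down from naïve to physical to ischemic injury, and the oligodendrocyte panel steps up from 24.5 to 150 CPM.

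Endothelial cells also held Cxcl1 and Cxcl10. Cxcl1 was 34.5 CPM (21.6 to 52.2) in the naïve library, 83.4 CPM (74.4 to 93.3) in the physical injury library and 91.7 CPM (83.3 to 101) in the ischemic injury library in NG2 cluster 5, where 1 of 2 members was higher after each injury (4.06% and 4.08% of all genes), and 29.7 CPM (18.6 to 44.9) in the naïve library, 68.7 CPM (64.2 to 73.5) in the physical injury library and 113 CPM (107 to 118) in the ischemic injury library in Tbx18 cluster 0, where 1 of 2 members was higher after physical (2.86% of all genes) and 2 of 3 after ischemic injury (3.36%). The naïve interval lay below both injured ones in each line, and in Tbx18 cluster 0 the ischemic library was also above the physical one. Giving each cell the same weight ended the calls of Cxcl1 in Tbx18 cluster 0. Its log2 ratios to naïve were then 0.016 after physical and 0.70 after ischemic injury. The physical injury call was also lost under the methods' filters (0.93), without the 5% of cells with the most UMIs (0.92) and with a pseudocount of 10 CPM (0.99). Cxcl10 in Tbx18 cluster 0 was 2.7 CPM (0.327 to 9.74) in the naïve library, 3.09 CPM (2.18 to 4.24) in the physical injury library and 33.1 CPM (30.2 to 36.3) in the ischemic injury library, 10.7-fold higher (7.71 to 15.4) after ischemic than after physical injury, the 1 of 3 members called where 0.274% of all genes were higher, and 27.8% of its ischemic UMIs came from 1 cell. In NG2 cluster 5 Cxcl10 was 0, 7.59 and 5.27 CPM. Ackr1, the atypical receptor of venules that takes up inflammatory chemokines, was 0, 23.8 and 37.1 CPM in NG2 cluster 5 and 0, 24.9 and 51.9 CPM in Tbx18 cluster 0, in the order naïve, physical, ischemic, and it was singled out after its values were seen.

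In Tbx18 cluster 4, 5 of 9 members were higher after physical and 3 of 9 after ischemic injury, with 4 lower in both, where 16.2% and 15.3% of all genes were higher and 28.5% and 39.6% lower. Between the injuries 2 of 7, Ccl3 and Ccl4, were lower in the ischemic library (10.7%), but 1 cell held 67 of 127 Ccl3 and 140 of 242 Ccl4 UMIs after physical injury, and under the methods' cell filters both directions turned (log2 ratio 0.083 and 0.66). The higher members were CC chemokines of the myeloid clusters, such as Ccl4, 0, 88.6 and 36.9 CPM, and the lower ones included Cxcl12, 463, 176 and 133 CPM, and Cxcl1, 137, 15.7 and 8.45 CPM. The summed myeloid markers were 44.6, 982 and 1399 CPM in the same libraries, with 6, 8 and 8 of the 8 listed genes above 0. Without the cells holding 3 or more myeloid UMIs, all 5 higher calls after physical and all 3 after ischemic injury were lost. The log2 ratios of Ccl2 and Ccl3 after physical injury turned negative, and those of Ccl7 and Ccl12 after ischemic injury fell to 0. Those of Ccl7, Ccl12 and Ccl4 after physical injury (2.29, 1.35 and 2.04) and of Ccl4 after ischemic injury (1.40) stayed above 1, with levels below 10 CPM. In NG2 cluster 10 (44, 23 and 43 cells) the calls rested on 1 to 8 UMIs each, in a cluster where 23.6% of all genes were called higher after physical injury, 32.6% after ischemic injury and 34.9% in the ischemic than the physical library, and they are counted above but not described.

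Before injury, members were compared between the lines in the 10 clusters of the naïve table with at least 20 cells of both. Of 36 pairs tested, 9 were higher and 11 lower in the Tbx18 line, where 12.7% and 13.2% of all pairs were. In naïve cluster 6, 4 were higher and 6 lower of 10 (30.6% and 22% of all genes), with 246 cells of the Tbx18 line against 29 of the NG2 line. These cells were of unlike kinds, with 681 UMIs of the microglial gene C1qa in the NG2 cells and 2 in the Tbx18 cells, and 265 and 3018 UMIs of the pericyte gene Vtn. Without this cluster, left out after seeing the data, 5 were higher and 5 lower of 26 pairs, where 10.6% and 12.1% of all pairs were, and 0 of the 5 lower ones had an interval that excluded 1. In naïve cluster 6, Ccl4 had 0 UMIs in the Tbx18 cells and was 3858 CPM in the NG2 cells, and Cxcl12 was 649 and 22.9 CPM. Elsewhere, Cxcl1 was 155 CPM in the Tbx18 and 41.0 CPM in the NG2 cells of naïve cluster 4 (3.78-fold, 2.77 to 5.13), 1 of 2 members higher where 6.55% of all genes were. The 155 CPM rests on 63 UMIs of the naïve Tbx18 library. In smooth muscle cluster 1 of that library 1 cell held most Cxcl1 UMIs, and the ratio in naïve cluster 4 without its leading cell is not given. Cxcl1 was 27.0 and 4.16 CPM in the Tbx18 and NG2 cells of naïve cluster 1 (6.49-fold, 1.43 to 24.2). Ccl11 was 40.5 and 7.27 CPM in naïve cluster 1 (5.57-fold, 1.75 to 15.4). The 2 members higher of 3 in naïve cluster 1 (12.3% of all genes) rest on 4 to 14 UMIs.

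The receptors at the highest summed level of a list of 23 were Ackr3, Cx3cr1, Ccrl2 and Ccr9 in the NG2 line and Ackr3, Ccrl2, Ccr2 and Cx3cr1 in the Tbx18 line. Ccr2, the receptor of Ccl2, Ccl7 and Ccl12, was 467 and 554 CPM in Tbx18 cluster 3 after physical and ischemic injury and 38.2, 0 and 5.84 CPM in NG2 cluster 9. Ackr3, which binds Cxcl12, was 413, 553 and 490.2 CPM in the pooled NG2 pericytes and 487, 216 and 145 CPM in Tbx18 cluster 2 (naïve, physical, ischemic). Of the other receptors, chosen after their values were seen, Ccr7 was 116 and 140.1 CPM in Tbx18 cluster 3 after physical and ischemic injury, Cxcr4 128 and 212 CPM and Cxcr3 10 and 8.71 CPM. Between the injuries, 0 of 9 receptors tested in Tbx18 cluster 3 were called.

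Of 28 other chemokine genes listed, 17 were in the NG2 table and 23 in the Tbx18 table. The highest were Cxcl2, Ccl25, Cxcl16 and Cx3cl1 in the NG2 line and Cxcl2, Pf4, Ccl5 and Ccl6 in the Tbx18 line. Cxcl2, which shares CXCR2 with Cxcl1, was 1453 CPM in NG2 cluster 9 after ischemic injury and 3006 CPM in Tbx18 cluster 3 after physical injury. Unlike Cxcl1, it was 10.8, 21.1 and 121 CPM in NG2 cluster 8, with the ischemic library the highest. Of 15 tested between the injuries in Tbx18 cluster 3, 2 were higher and 1 lower after ischemic injury (1.54% and 0.897% of all genes).

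Genes of pathways that act on chemokine genes were described from lists of 15 genes each. Of interferon-stimulated genes, 10 of 13 and 13 of 15 tested were higher in Tbx18 cluster 2 after physical and ischemic injury (median log2 ratio 1.51 and 2.61), where 8.48% and 11% of all genes were, and 11 of 15 and 10 of 15 in NG2 cluster 8 (1.77 and 1.21, with 6.7% and 7.11% of all genes), the clusters where Cxcl10 was 0, 8.76 and 2.84 and 2.71, 71.1 and 113 CPM. The list and Cxcl10 did not always move together. In Tbx18 cluster 0 none of 15 was called between the injuries (median 0.014, with 0.274% of all genes higher), where Cxcl10 was 10.7-fold higher (7.71 to 15.4). That ratio rests on few cells. In the whole ischemic library of this line, Cxcl10 had a UMI in 79 of 2047 cells, and 10 cells held 73.1% of its UMIs. In Tbx18 cluster 2, 8 of 15 were higher in the ischemic than in the physical library (5.83% of all genes). Cxcl10 there, at 8.76 and 2.84 CPM after physical and ischemic injury, was below the 10 CPM needed for a comparison, so its direction is not read. Of NF-kB targets and inflammatory cytokines, 7 of 10 and 8 of 10 were higher in Tbx18 cluster 2 (8.48% and 11% of all genes), and 6 of 10 in NG2 endothelial cluster 5 after each injury (4.06% and 4.08% of all genes). In Tbx18 endothelial cluster 0 only 1 of 10 and 2 of 10 were higher (2.86% and 3.36%), and in NG2 cluster 8 1 of 10 and 2 of 10 (6.7% and 7.11%). In NG2 cluster 8, 2 of 10 were lower after each injury, where 9.23% and 11.8% of all genes were. In Tbx18 cluster 1, 4 of 8 were lower after ischemic injury (16% of all genes). Immediate early and dissociation genes were lower in 9 of 15 after physical injury in the pooled NG2 pericytes (median -1.14, with 0.284% of all genes lower) and higher in 9 of 15 in the ischemic than in the physical library (1.30, with 0.827% of all genes higher), where Cxcl1 was 31.7, 20.2 and 97.2 CPM. Between the ischemic and the naïve library 0 of 15 were higher and 0 lower (median 0.26, with 0.654% and 0.153% of all genes), although Cxcl1 was called higher there. In Tbx18 smooth muscle cluster 1, 10 of 15 were lower after ischemic injury, where 16% of all genes were. In NG2 cluster 8, 10 of 15 and 9 of 15 were lower after physical and ischemic injury (median -1.43 and -1.24, with 9.23% and 11.8% of all genes lower). Cxcl1 there was at 655, 719 and 686 CPM. In Tbx18 cluster 2 only 1 was higher and 2 lower of 15 after each injury (median 0.11 and 0.15), with Cxcl1 at 39.7, 383 and 1089.8 CPM. Of all genes there, 8.48% and 11% were higher and 5.04% and 8.56% lower. The medians of all genes tested in these comparisons were within 0.1 of 0 except in NG2 cluster 8 after ischemic injury.

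The genes whose levels followed each member most closely were found over 47 cluster and library sums of both lines, among 17399 genes, as Pearson's r of log2(CPM + 1). The sums share libraries and depth, so these are descriptions. The closest to Ccl12 were Fcgr3, Ms4a6d and Tnfaip8l2 (0.99 each), to Ccl4 C1qb, C1qc and Bcl2a1b (0.95 each), and to Ccl3 Was (0.90), Irf8 (0.90) and Ccl4 (0.89). For Ccl2 they were Tnfaip2 (0.83), Ccl7 (0.83) and Tmem273 (0.82), and for Ccl7 Lsp1 (0.84), Plac8 (0.83) and Ccl2. Cxcl1 was closest to the immediate early genes Junb (0.85) and Zfp36 (0.82) and to Rassf1 (0.81), and Cxcl10 to Slc15a3 (0.81), Tnf (0.79) and Cxcl2 (0.77). Cxcl12 was closest to Lef1 (0.86), Adgrf5 (0.86) and Slc9a3r2 (0.85), Ccl19 to Gm12153 (0.80), Lepr (0.79) and Colec11 (0.78), and Ccl11 to Gm50130 (0.82), Erich4 (0.81) and Gm32014 (0.76).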

How the data were processed

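Single-cell RNA-seq (10x Genomics 3′ v3) was analysed for 6 libraries of FAC-sorted tdT+/DAPI- cortical cells, 1 pooled library for each line and condition. The deposited tables hold raw UMI counts per gene and cell, with the cluster and library that the authors assigned to each cell and, per cell, the percent of mitochondrial transcripts. The authors aligned reads to mm10 (GRCm38) with Cell Ranger (7.0.0 per the submitters' processing notes), kept genes found in at least 3 cells of a library, filtered cells on genes, UMIs and mitochondrial percent, and integrated and clustered the cells in Seurat. The paper's methods instead give a range of Cell Ranger versions that ends at 7.0.0. They do not say which library had which version, so processing may differ between libraries. The annotation release is not given in the sources used here, and whether doublets were removed is not stated; no doublet caller was run here, and leaving out the 5% of cells with the most UMIs in each cluster and library was an alternative.

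UMIs of each member were summed per cluster and library and scaled to CPM of all UMIs of the same cells, with pandas 2.3.3, numpy 2.4.6 and scipy 1.17.1 under Python 3.11.15, and figures were drawn with matplotlib 3.10.9. With 1 library a group, no test was run. Levels have exact Poisson, shares exact Clopper-Pearson and ratios exact conditional binomial intervals, at 95%, for counting error only. Conditions were compared within a line in cell groups with at least 20 cells in both libraries and 10 CPM in the higher one, with 1 CPM added before the log2 ratio, and a log2 ratio of 1 counted as a call. A count of 0 was bounded by a floor of 3 counts. Cells were thinned to 1000 UMIs for shares, leaving out shallower cells. Total depth was 3153996 to 54276245 UMIs per library. In the naïve Tbx18 library 8 of the 10 members were detected.

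All 10 members are named. From the lists of other chemokines, receptors, NF-kB targets, interferon-stimulated and immediate early genes, the 4 genes with the highest summed CPM could be named, and the 3 genes most like each member by Pearson's r among those with at least 50 counts. The members and lists were chosen with earlier results of these data known. The alternatives were other scalings (edgeR 4.0.16 and DESeq2 1.42.0 factors in R 4.3.3), cell filters, weights of single cells, folds and pseudocounts. The contrast code was tested on simulated counts.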

Additional observations from a re-analysis of the deposited data

Results flagged for a closer look

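The log2 ratio of a member between conditions had opposite signs in the 2 lines in 5 comparisons of the same cell type. Each line had 1 library per condition, so none of these differences was tested. For Cxcl1 in smooth muscle cells, physical injury against naïve was 0.98 in the NG2 line and -0.91 in the Tbx18 line, ischemic injury against naïve was 1.47 and -2.77, and ischemic against physical injury was 0.48 and -1.86. The naïve and ischemic smooth muscle groups of the Tbx18 line held 63 and 47 cells. In the naïve group 1 cell held most of the Cxcl1 UMIs, and the sign of the -0.91 depends on that cell. For Cxcl1 in the pooled NG2 pericytes and Tbx18 cluster 2, physical injury against naïve was -0.63 and 3.24. For Ccl2 in the same cell groups, ischemic against physical injury was 2.67 and -0.76.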

How the results depend on the processing

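Single-library groups and low counts limit these results. No paired analysis was possible because each line and condition has 1 library. No library could be left out for the same reason. Of 89 called member and cell group pairs, TMM factors and median-of-ratios size factors each ended 3 calls, TMM factors with no count minimum 6, the methods' cell filters applied again 6 of 87, leaving out the 5% deepest cells 4, leaving out cells with 3 or more myeloid UMIs outside the myeloid clusters 12, leaving out the single leading cell 19, weighting cells equally 13, and a pseudocount of 10 CPM 9; equal weight of NG2 clusters 0, 1 and 2 ended 0 of 4. TMM factors moved log2 ratios of Tbx18 cluster 3 against naïve by 0.75 and 0.66, and those of cluster 4 by 0.27 and 0.47, for physical and ischemic injury.

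In the NG2 line, the 5 pairs higher after physical injury became 3 without the leading cell, 2 at a log2 ratio of 2 and 3 when the interval also had to exclude 1, a rule chosen after seeing the data. The 2 lower ones became 1 at a log2 ratio of 2. The 2 lower after ischemic injury became 4 under the methods' filters and 1 at a log2 ratio of 2. The 2 lower in the ischemic than the physical library became 1 with TMM factors, with or without a count minimum, median-of-ratios factors, the filters, no leading cell, equal weight of cells, a log2 ratio of 2 or a pseudocount of 10 CPM. In the Tbx18 line, without the naïve comparisons of clusters 3 and 4 (chosen after seeing the data), higher and lower pairs became 6 and 0 after physical injury and 6 and 1 after ischemic injury. The 5 lower after physical injury were 3 with TMM factors and no count minimum. Between the injuries the 2 higher became 4 under the filters and 1 at a log2 ratio of 2, and the 5 lower became 3 and 1. The 9 pairs higher in the naïve Tbx18 line became 5 without naïve cluster 6, and the 11 lower became 5 without it and 6 when the interval had to exclude 1, both chosen after seeing the data.

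Only called pairs were followed in this way. Among them, directions turned for Ccl7 in NG2 cluster 8 after physical injury (-0.010 without the leading cell), for Ccl2 and Ccl3 in Tbx18 cluster 4 after physical injury (-0.49 and -2.38 without the cells holding myeloid UMIs) and for Ccl3 and Ccl4 there between the injuries (0.083 and 0.66 under the filters). The causes were not tested.

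Under the filters, levels in NG2 cluster 9 became 926 CPM for Ccl2 (ischemic) and 2768 for Ccl3, 7617 for Ccl4 and 328 for Cxcl10 (physical). Without the leading cell they were 842, 2417, 5914 and 328 CPM, Ccl7 in Tbx18 cluster 3 (physical) was 296, Ccl11 in NG2 cluster 8 (ischemic) 49.8 and Cxcl1 in Tbx18 cluster 2 (ischemic) 973 CPM. Thinning to 1000 UMIs gave shares of cells of 35.7% for Ccl2 and 39.6% for Ccl12 (NG2 cluster 9, ischemic), 17.1% for Cxcl10 (the same cluster, physical), 12.3% for Ccl7 (Tbx18 cluster 3, physical), 4.22% for Ccl11 (NG2 cluster 8, ischemic) and 18.4% for Ccl19 (NG2 cluster 8, naïve).

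With the clusters of the naïve table, the leading cluster held 54.8% of naïve NG2 Ccl2, and 24.4% and 65.3% of naïve NG2 and Tbx18 Cxcl12. Cells with 3 or more myeloid UMIs were left out only outside the myeloid clusters, which could only raise the shares of those clusters. NG2 cluster 9 then held 99.1% of ischemic Ccl4. Tbx18 cluster 3 held 92.9%, 92.4%, 99.1%, 98.9% and 99.3% of Ccl2, Ccl7, Ccl12, Ccl3 and Ccl4 after physical injury, and 99.0%, 98.5%, 99.7%, 99.4% and 99.6% after ischemic injury.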
